A study of Mus musculus with 8 samples.

Results

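Oxidative phosphorylation subunits were taken as the genes whose array symbol names a nuclear-encoded subunit of respiratory complexes I to V (numbered Nduf symbols of the a, b, c, s and v series, Sdha to Sdhd, Uqcr symbols and Cyc1, Cox5 to Cox8 symbols with a letter a to c, and Atp5 symbols). This gave 80 of the 18193 genes named on the array, with 35 in complex I, 4 in complex II, 9 in complex III, 15 in complex IV and 17 in complex V. Each gene was read by 1 probe set, the one with the highest mean among those naming only that gene. The cells were CD3+CD8+CD44+CD62L- T cells, the surface phenotype of antigen-experienced effector cells, sorted from female C57BL/6 mice of 6-8 weeks. The mice carried subcutaneous MC38 tumors, from a mouse colon carcinoma line, in all 4 groups. Tumor IR and Tumor no IR cells came from the tumors, LN IR and LN no IR cells from pooled inguinal and axillary lymph nodes. IR groups had received 5 Gy to the whole body 5 h earlier, and no IR groups were not irradiated. Each group had 2 arrays, each holding RNA of cells pooled from 4 mice. Tumors were digested with enzymes and spun in Percoll, whereas LN were disrupted mechanically, so tissue and preparation cannot be told apart.

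Complexes I and II pass electrons from NADH and succinate to ubiquinone, complex III passes them on to cytochrome c, and complex IV reduces oxygen. Complexes I, III and IV pump protons across the inner mitochondrial membrane, and complex V, the ATP synthase, uses the gradient to make ATP. Activated CD8+ T cells combine this respiration with glycolysis, and several complex IV subunits exist as isoforms that are used in muscle, testis or other tissues.

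T cell genes were high on all 8 arrays, and the treatment was visible. *Cd44*, also used in the sort, lay between 11.35 and 12.06 (log2 values). *Cd8a*, a chain of the CD8 coreceptor, lay between 12.09 and 12.67 and *Cd3e*, part of the T cell receptor complex, between 12.14 and 12.63 on all 8 arrays (log2 values). *Phlda3*, a p53 target, rose with IR in both tissues, by 2.29 in tumor and 4.12 in LN on the log2 scale (limma, adjusted p = 0.0301 and 0.00178). *Cdkn1a*, the other gene set for this check, rose by 3.84 in LN (limma, adjusted p = 0.00392). Its difference of 1.95 with IR in tumor did not pass (adjusted p = 0.138). Without IR it was already 2.12 higher in tumor than in LN (adjusted p = 0.00689). Of 13 macrophage markers 12 were higher in Tumor no IR than in LN no IR cells and 12 in Tumor IR than in LN IR cells. Their mean level was 8.84 and 10.29 on the Tumor IR arrays and 10.18 and 10.97 on the Tumor no IR arrays, against 6.14 to 6.53 on the LN IR and 5.91 to 6.36 on the LN no IR arrays. Of 9 B cell markers 3 were lower in Tumor no IR than in LN no IR cells and 4 in Tumor IR than in LN IR cells. The mean of these 9 was 6.45 to 6.70 on the tumor arrays, against 7.16 to 8.07 on the LN arrays. That of 11 fibroblast markers was 8.29 to 8.74 on the tumor arrays, against 6.22 to 6.54 on the LN arrays. The LN IR replicate 2 array stood apart. The mean of 14 proliferation genes was 8.87 there, against 10.00 to 10.82 on the other 7 arrays. The mean of 11 T cell identity genes was 11.09 there and 11.48 on its partner array, but it was as low on Tumor IR replicate 2 (11.08). It was the lowest of the 8 arrays for 39 of the 80 subunit genes, against 27.5% of all genes. The main counts and the calls that rest on it are therefore also given without it, and the part of these differences in the results was not tested.

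The respiratory genes were strongly and evenly represented. Of the 80 genes, 67 had all 8 values above 9 on the log2 scale, and only *Cox7b2* lay under the lower quartile of its array throughout. The range over the 8 arrays was below 1 for 72 genes, which is 2-fold, as for 66.4% of all genes, and the median range was 0.56. Replicates differed by a median of 0.10 for Tumor IR and 0.06 for Tumor no IR, against 0.31 for LN IR and 0.18 for LN no IR. The LN replicates were thus farther apart than the tumor replicates. Over all genes these medians were 0.14 for both tumor groups, 0.27 for LN IR and 0.19 for LN no IR. With 2 arrays a group, p-values measure only the spread between these arrays.

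**Figure D1:**
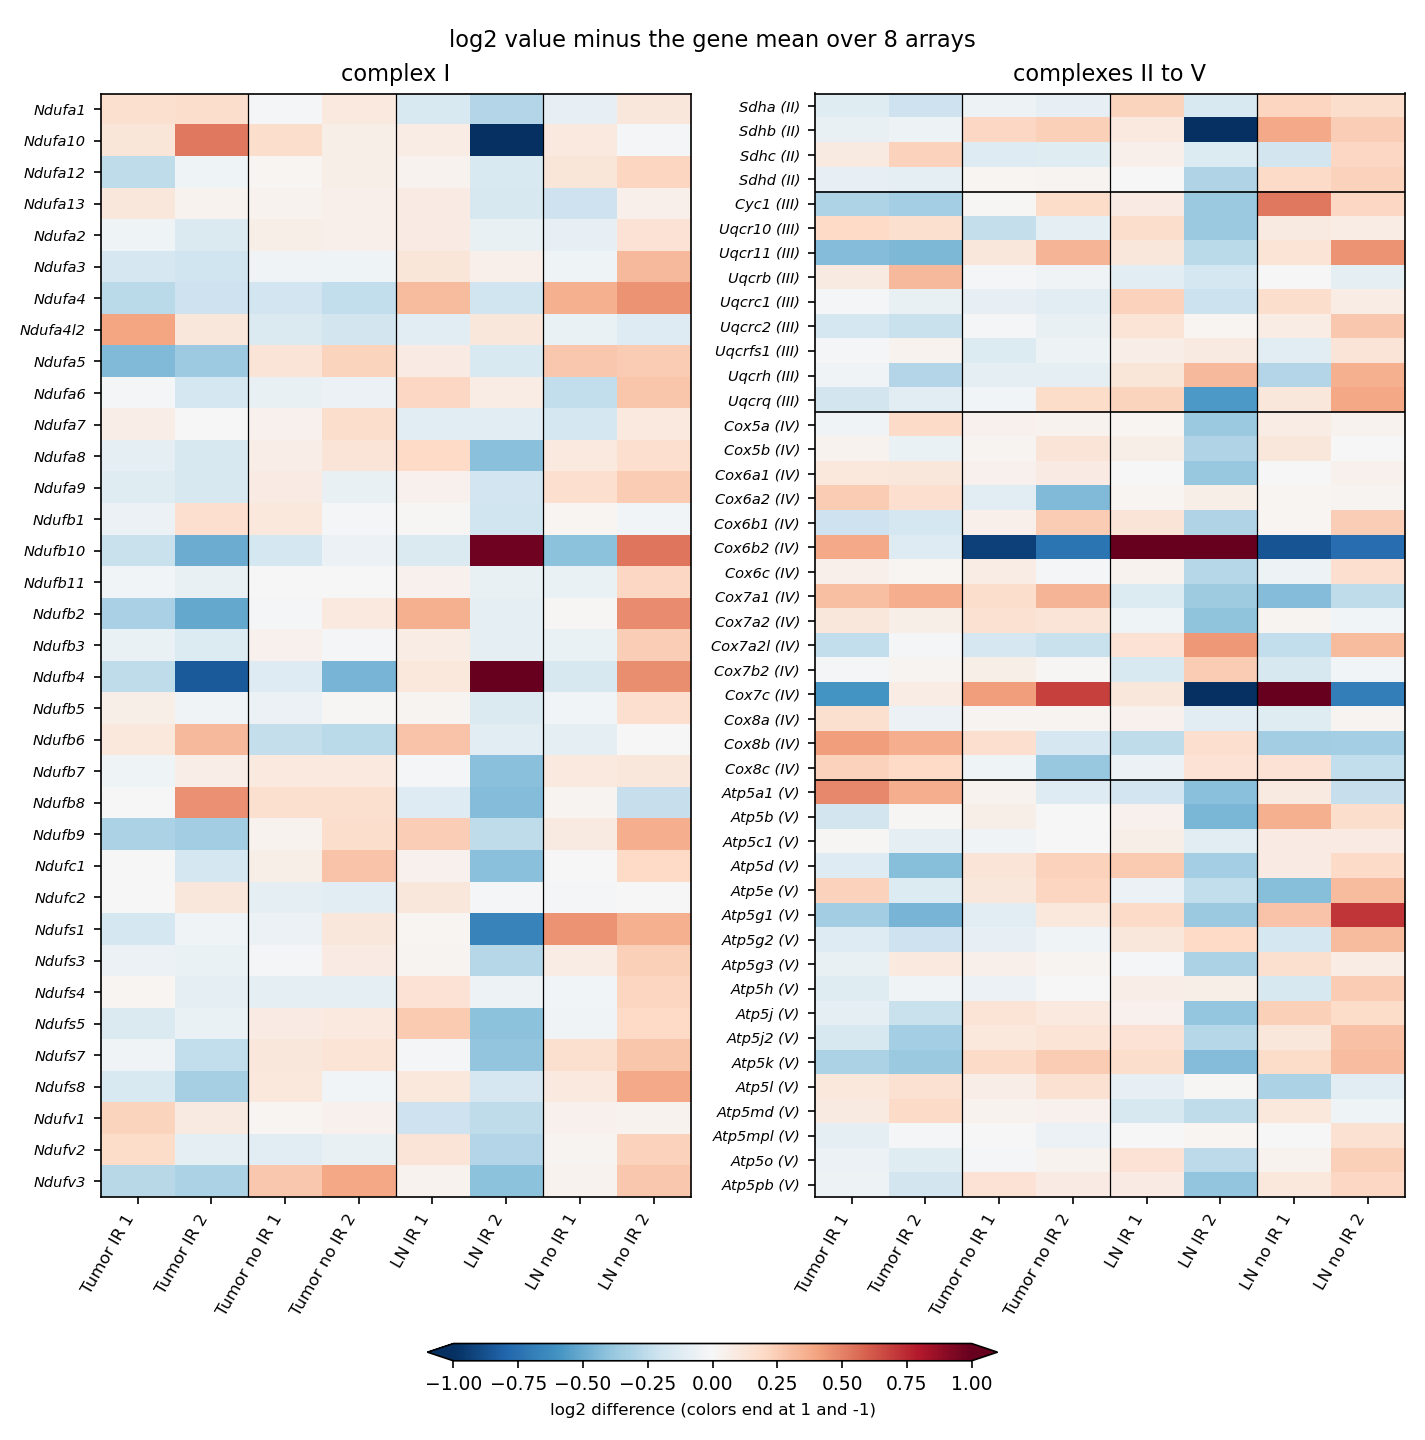
Each row is 1 of the 80 subunit genes and each column 1 array, ordered Tumor IR, Tumor no IR, LN IR and LN no IR; the color is the log2 value minus the gene's mean over the 8 arrays. Most rows are pale, the LN IR replicate 2 column is blue for many genes, and the Cox6b2 row is dark red on both LN IR arrays.

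The first question was whether tumor T cells differ from LN T cells in these genes without IR. They differed little. A gene was said to rise or fall at an adjusted p under 0.1 in limma at any fold. In Tumor no IR over LN no IR cells 1 subunit gene rose, *Cox7a1*, and 0 fell, that is 1.25% and 0% of 80 genes, against 6.06% and 2.26% of all genes. Without adjustment 2 of the 80 genes (2.5%) had a p under 0.05, against 17.7% of all genes, and the robust fit the study used called 4 (5%), against 20.6%. The median log2 fold change of the 80 genes was -0.08, and that of all genes was -0.09. It was 0.00 without LN no IR replicate 2 and -0.12 without LN no IR replicate 1. The 2 tumor arrays lay wholly above the 2 LN arrays for 7 subunit genes (8.75%, against 21.3% of all genes) and wholly below for 25 (31.2%, against 35.2%). For 75 of the 80 genes the 95% confidence interval of the difference stayed inside 2-fold in both directions, as it did for 76.3% of all genes.

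With IR in both tissues 2 subunit genes were higher in tumor, *Cox7a1* and *Atp5a1*, and 1 was lower, *Cox6b2*. These are 2.5% and 1.25% of the genes, against 8.43% and 4.5% of all genes. The median of Tumor IR over LN IR was 0.02 for the 80 genes and 0.06 for all genes. The arrays were apart for 17 genes upward and 17 downward, or 21.2% each, against 30.1% and 20% of all genes. Without LN IR replicate 2 the median was -0.13, the sign turned, and 5 genes were called, of which 1 was higher (6.25%, against 12.3% of all genes). Of the 3 called genes only *Cox6b2* was among those 5. The robust fit called 15 of the 80 genes (18.8%) and 27.4% of all genes.

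The next question was how the genes responded to IR within each tissue. In LN IR over LN no IR cells 1 subunit gene rose, *Cox6b2*, and 0 fell (1.25% and 0%, against 0.984% and 0.511% of all genes). Another 7 genes had an unadjusted p under 0.05 and a lower value with IR, namely *Ndufs1*, *Ndufs7*, *Sdhb*, *Sdhd*, *Cyc1*, *Atp5b* and *Atp5g1*. These are 8.75% of the genes, against 9.22% of all genes, and without LN IR replicate 2 the lowest adjusted p among them was 0.433. The median was -0.18, with 60 of 80 values below 0, against 0.01 for all genes. Among the 9835 genes left when the dimmer probe sets were dropped, the median was -0.15, close to that of the subunit genes. The LN IR arrays lay below both LN no IR arrays for 26 genes (32.5%, against 19.5% of all genes and 28% of the brighter ones) and above for 3 (3.75%, against 21.8% and 15.4%). This lower setting rested mainly on 1 array. On LN IR replicate 2, 55 of the 80 genes were below both LN no IR arrays and 9 above, when 41.3% and 39.1% of all genes were. On LN IR replicate 1, 27 were below and 14 above, when 30.0% and 35.9% of all genes were. Without replicate 2 the median was -0.03 and 1 gene was called, whereas without replicate 1 it was -0.34 and 22 genes were called, 2 up and 20 down, when 26.1% of all genes were.

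In Tumor IR over Tumor no IR cells 0 subunit genes rose and 0 fell in limma, against 0.0934% and 0.0055% of all genes. At an unadjusted p under 0.05 there were 9, or 11.2%, against 16.6% of all genes. The robust fit called 11, a fit of the 4 tumor arrays alone also 11 and array weights 14, when they called 19.7%, 15.4% and 21.5% of all genes. The arrays were apart for 36 genes downward and 18 upward. These 45% and 22.5% stood against 26% and 41.4% of all genes, but against 41.9% and 25.9% of the 9835 brighter genes. The median was -0.07, against 0.09 for all genes and -0.08 for the brighter ones. The shares of the subunit genes were thus near those of the brighter genes.

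The IR effect in tumor minus that in LN passed for 0 subunit genes and for 0% of all genes in limma, and 2 subunit genes had an unadjusted p under 0.05, *Cox6b2* and *Atp5a1* (2.5%, against 5.63% of all genes). The robust fit called 0, against 0.0989% of all genes. The IR arrays were apart from the no IR arrays in both tissues for 22 genes. Of these, 15 were lower in both, 2 were higher in both (*Cox6b2* and *Cox8b*) and 5 went in opposite directions. The 18.8% lower in both stood against 10.6% of all genes and 17.7% of the brighter genes, the 2.5% higher in both against 14.7% and 9.2%, and the 6.25% in opposite directions against 3.09% and 2.79% for that same order of tissues. The 5 were *Atp5md*, *Cox6a1*, *Ndufa1*, *Ndufv1* and *Uqcrb*, each higher in tumor and lower in LN, by differences of 0.26 to 0.39 between the tissues that did not pass (limma, adjusted p = 0.782 to 0.821).

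The zero of these values depended on the scaling. Scaled to 11 T cell identity genes, the medians of the subunit genes were 0.13 for tumor over LN both without and with IR, 0.26 with IR in LN and 0.255 with IR in tumor, and those of all genes were 0.13, 0.16, 0.45 and 0.42. This scaling moves every gene of an array alike, so the distance between the subunit genes and all genes stays at 0.00, -0.03, -0.19 and -0.17 by construction. Under cyclic loess, which can change it, that distance was -0.04, -0.09, -0.03 and -0.04.

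**Figure D2:**
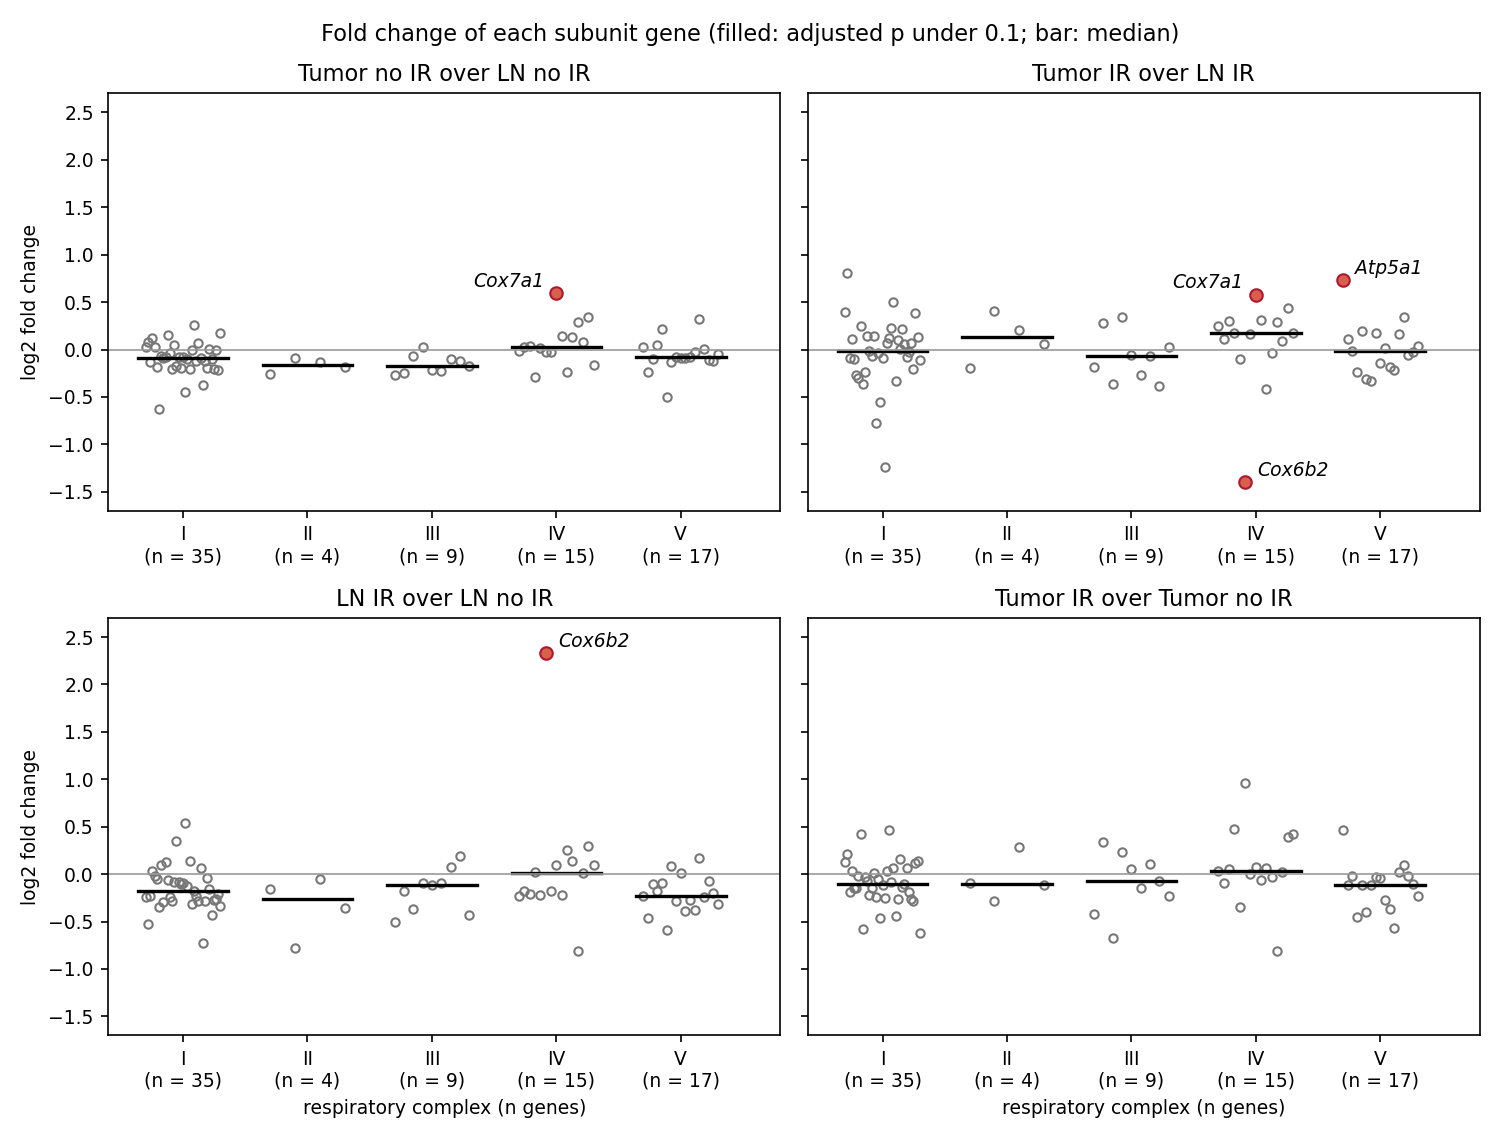
Each point is the log2 fold change of 1 subunit gene, by complex, in the 4 comparisons; filled points passed an adjusted p under 0.1 and bars are medians. Apart from Cox6b2, at 2.33 with IR in LN, no gene that passed lay beyond 0.73 in a rise.

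The mean of the 35 complex I genes was 10.56 and 10.53 on the Tumor IR arrays and 10.63 and 10.65 on the Tumor no IR arrays, against 10.69 and 10.47 on the LN IR arrays and 10.63 and 10.82 on the LN no IR arrays. With IR in LN the complex I arrays overlapped those without IR, and so did the complex III arrays. In complex II they did not, with 10.89 and 10.39 on the LN IR arrays, against 10.95 and 11.01 on the LN no IR arrays, and the LN IR replicates were far apart. Within tumor the IR arrays were below the no IR arrays in complexes I, II, III and V and above them in complex IV, which had 9.78 and 9.80 on the Tumor IR arrays and 9.72 and 9.70 on the Tumor no IR arrays, against 9.82 and 9.64 with IR and 9.68 and 9.62 without IR in LN. *Cox6b2*, which ranged over 2.49 on the 8 arrays, is 1 of the 15 genes in that mean. Without it the complex IV means were 9.91 and 9.96 on the Tumor IR arrays and 9.94 and 9.91 on the Tumor no IR arrays, which overlap, against 9.87 and 9.68 on the LN IR arrays and 9.89 and 9.82 on the LN no IR arrays, so that complex IV was then also lowest on LN IR replicate 2. Each of these levels was set against its own set on other arrays and not against other sets, whose probes differ.

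**Figure D3:**
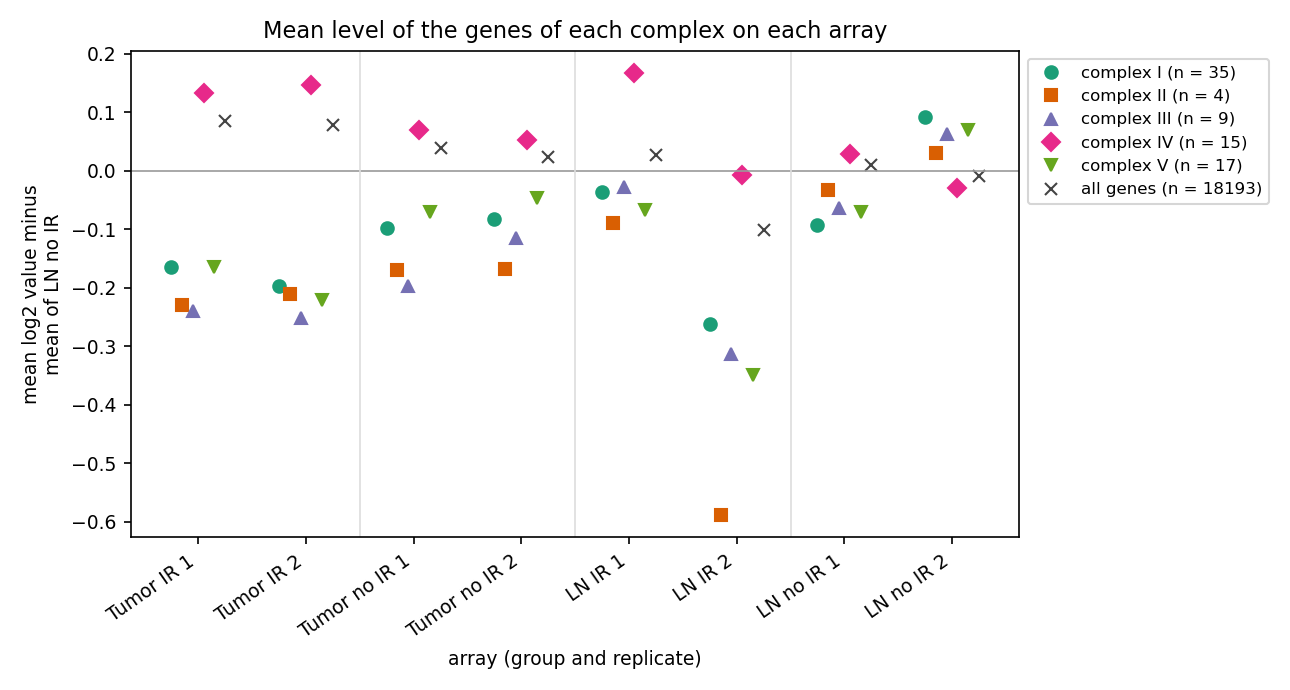
Points give, for each array, the mean log2 value of the genes of a complex (and of all genes) minus its mean over the 2 LN no IR arrays. Complexes I, II, III and V sit low on LN IR replicate 2, where complex II had a mean level of 10.39 against 10.98 in LN no IR cells, while complex IV had 9.64 against 9.65 with Cox6b2 in its mean and 9.68 against 9.86 without it.

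In complex I, which takes electrons from NADH, 0 of 35 genes rose or fell in any of the 4 comparisons. *Ndufs1*, the large iron-sulfur subunit, was 9.25 and 9.39 in Tumor IR and 9.37 and 9.54 in Tumor no IR cells, against 9.45 and 8.76 in LN IR and 9.88 and 9.78 in LN no IR cells. Its LN IR arrays were both below the LN no IR arrays, but far apart from each other, and the log2 fold change of -0.72 did not pass (95% CI -1.27 to -0.18, limma adjusted p = 0.238). It was -0.38 without LN IR replicate 2. *Ndufv1*, which binds the NADH-oxidizing flavin, was 11.12 and 10.99 in Tumor IR cells, against 10.70 and 10.65 in LN IR cells, without overlap (log2 fold change 0.38, adjusted p = 0.134). Its 2 other probe sets went the opposite way, by -0.30 and -0.40 (adjusted p = 0.453 and 0.309). The 6 measured core subunits together had a median of -0.28 with IR in LN, or -0.19 without LN IR replicate 2, and -0.12 with IR in tumor.

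*Ndufa4*, named for complex I but since assigned to complex IV, was 10.02 and 10.09 in Tumor IR and 10.10 and 10.04 in Tumor no IR cells, against 10.61 and 10.09 in LN IR and 10.65 and 10.74 in LN no IR cells. Both Tumor no IR arrays were lower than both LN no IR arrays, by -0.62 on the log2 scale, which just missed the threshold (95% CI -1.07 to -0.17, limma adjusted p = 0.136) though it passed with the robust fit. *Ndufa4l2*, its paralog, known as a hypoxia-inducible gene, was 8.49 and 8.21 in Tumor IR cells and 7.95 and 7.91 in Tumor no IR cells, against 7.99 and 8.21 in LN IR and 8.03 and 7.97 in LN no IR cells. Its difference with IR in tumor was 0.42 and did not pass (adjusted p = 0.309). *Ndufb4* spread from 5.63 to 7.74 and *Ndufb10* from 9.99 to 11.46, both with LN IR replicate 2 highest, against the order of most subunits.

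Complex II, which also belongs to the citric acid cycle, has 4 subunits and all were measured. *Sdhb*, its iron-sulfur subunit, was 10.45 and 10.48 in Tumor IR and 10.73 and 10.76 in Tumor no IR cells, against 10.62 and 9.49 in LN IR and 10.90 and 10.76 in LN no IR cells. The low LN IR value came from replicate 2. The fold change with IR in LN was -0.78 (95% CI -1.56 to -0.01, limma adjusted p = 0.337) and it was -0.21 without that array (adjusted p = 0.703). *Sdha*, the flavoprotein subunit, stayed between 10.95 and 11.38 on all arrays, and none of its fold changes passed. Of its 3 other probe sets, both dimmer ones were highest on LN IR replicate 2 instead, with 9.11 and 8.25.

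In complex III 0 of 9 genes passed. *Cyc1*, cytochrome c1, was 9.37 and 9.33 in Tumor IR and 9.68 and 9.86 in Tumor no IR cells, against 9.76 and 9.31 in LN IR and 10.20 and 9.88 in LN no IR cells. In both tissues the IR arrays were below the no IR arrays, by -0.42 in tumor (adjusted p = 0.364) and -0.51 in LN (adjusted p = 0.316), or -0.28 without LN IR replicate 2. *Uqcr11*, a small accessory subunit, had 8.61 and 8.59 in Tumor IR cells, against 9.16 and 9.38 in Tumor no IR cells (log2 fold change -0.67, adjusted p = 0.288). *Uqcrc1*, a core protein, and *Uqcrfs1*, the Rieske iron-sulfur protein, differed by at most 0.22 in size in any of the 4 comparisons.

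Complex IV held both genes that passed in more than 1 comparison. *Cox6b2* encodes the testis form of subunit VIb, which sits on the face of the enzyme toward cytochrome c, and *Cox6b1* the form used in most tissues. *Cox6b2* was 7.94 and 7.44 in Tumor IR cells and 6.63 and 6.83 in Tumor no IR cells, against 9.13 and 9.05 in LN IR cells and 6.71 and 6.80 in LN no IR cells. The no IR arrays of both tissues overlapped, every IR array was above them, and the LN IR arrays were above the Tumor IR arrays. With IR in LN *Cox6b2* rose 5.04-fold (log2 fold change 2.33, 95% CI 1.87 to 2.79, limma adjusted p = 0.00622), the 29th largest of the 179 rises among all genes. With IR in tumor it was 1.94-fold higher, but this missed the threshold (log2 fold change 0.96, 95% CI 0.50 to 1.42, adjusted p = 0.249). Tumor IR cells were 2.63-fold lower than LN IR cells (log2 fold change -1.39, adjusted p = 0.00803), the 171st largest of the 818 falls among all genes. The difference of the IR effects, -1.37 with a 95% CI of -2.02 to -0.73, did not pass over all genes (adjusted p = 0.642). The LN rise held in 19 of 20 alternatives, the exception being a fit of the 4 LN arrays alone (adjusted p = 0.230), which called 0 genes of the whole array. LN IR replicate 2, low for most subunits, was not low for this gene.

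*Cox6b1* was 10.87 and 10.90 in Tumor IR and 11.13 and 11.33 in Tumor no IR cells, against 11.20 and 10.77 in LN IR and 11.09 and 11.32 in LN no IR cells. It did not share the pattern of *Cox6b2*, and its difference with IR was -0.34 in tumor (95% CI -0.79 to 0.10) and -0.22 in LN (95% CI -0.67 to 0.23). *Cox6b2* was read by 1 probe set. It lies at chr7:4751792-4753094 (GRCm38.p6, RefSeq) and overlaps no other RefSeq gene there, but it lies on the minus strand, and the next gene, *Fam71e2*, which was not measured by a named probe set, is 132 bases upstream of its start. Beyond its other end *Kmt5c*, a histone methyltransferase gene 4278 bases away, was 8.98 and 8.81 in LN IR cells, against 8.68 and 8.30 in LN no IR cells. This gap of 0.41 did not pass (adjusted p = 0.346).

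**Figure D4:**
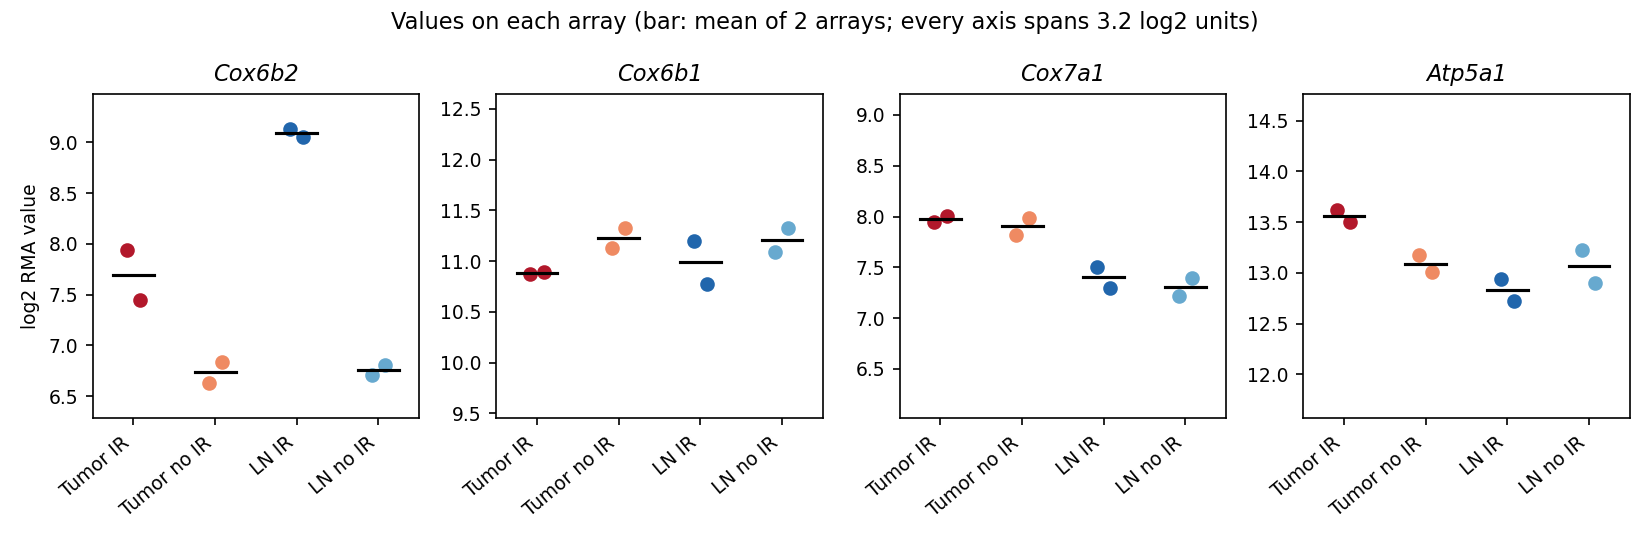
Log2 values on each array for Cox6b2, its ubiquitous counterpart Cox6b1, Cox7a1 and Atp5a1, with bars for the mean of 2 arrays and the same span on every axis. Cox6b2 is highest on both LN IR arrays (9.13 and 9.05), Cox7a1 is higher on all 4 tumor arrays than on all 4 LN arrays, and Atp5a1 is highest on the Tumor IR arrays.

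*Cox7a1*, the heart and skeletal muscle form of subunit VIIa, was 7.95 and 8.01 in Tumor IR and 7.82 and 7.98 in Tumor no IR cells, against 7.51 and 7.29 in LN IR and 7.22 and 7.39 in LN no IR cells. All 4 tumor arrays were above all 4 LN arrays. It was 1.51-fold higher in tumor without IR (log2 fold change 0.60, limma adjusted p = 0.0828) and 1.49-fold with IR (0.58, adjusted p = 0.0687). The fold changes share no arrays, but their p-values share 1 estimate of the spread over all 8 arrays. By size these were the 1086th of 1102 rises among all genes without IR and the 1439th of 1534 with IR. Both calls were lost when only the arrays compared were fitted. The calls were near the threshold, and they held in 8 and 11 of 20 alternatives, with fold changes of 0.51 to 0.82 and 0.47 to 0.69 on the log2 scale. The call with IR was lost without LN IR replicate 2 (0.47, adjusted p = 0.153). *Cox7a2*, the form used in most tissues, was 0.14 and 0.31 higher and did not pass (adjusted p = 0.706 and 0.306). Macrophage and fibroblast markers were higher in the same comparisons, 12 of 13 in each and 6 and 8 of 11, and their part in the *Cox7a1* values was not tested. In bulk RNA, more cells of a type and more RNA per cell cannot be told apart.

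The other isoform pairs of complex IV gave no call. *Cox6a2*, a muscle form, was 8.75 and 8.67 in Tumor IR cells, against 8.39 and 8.06 in Tumor no IR cells (log2 fold change 0.48, adjusted p = 0.297), and *Cox6a1*, its common counterpart, differed by 0.05. *Cox8b* and *Cox8c*, a muscle and a testis form of subunit VIII, were 0.39 and 0.43 higher with IR in tumor (adjusted p = 0.371 and 0.351), against 0.02 for the common *Cox8a*. *Cox7a2l*, which joins complexes III and IV into a supercomplex, was 11.59 and 11.83 in Tumor IR cells, against 11.99 and 12.28 in LN IR cells, without overlap (log2 fold change -0.42, adjusted p = 0.309). *Cox5a*, which is not known to have tissue forms, differed by at most 0.25 in size on the brightest of its 3 probe sets. The next brightest gave 0.79 for Tumor IR over LN IR cells (limma adjusted p = 0.112). With IR in LN it gave -0.50 (adjusted p = 0.411). The dimmest gave 0.11 and -0.22 in these comparisons. *Cox7c* had the widest replicate gap of all members, 8.09 and 6.20 in LN no IR cells, so that nothing can be read from its differences.

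The start regions of 3 complex IV genes are shown because these genes carry or frame the results: *Cox6b2* and *Cox7a1*, which were called, and *Cox6b1*, the counterpart that was not. Each holds 250 bases before and 50 after the RefSeq start (GRCm38.p6), read 5′ to 3′ on the gene's strand. Capitals mark the CCAAT box on either strand (CCAAT or ATTGG) and, in *Cox6b1*, the ETS motif CCGGAAG, the core bound by GABPA, here on the opposite strand. The windows are chr7:4753045-4753344 (minus strand) for *Cox6b2*, chr7:30626065-30626364 (minus strand) for *Cox6b1* and chr7:30183921-30184220 (plus strand) for *Cox7a1*.
Cox6b2: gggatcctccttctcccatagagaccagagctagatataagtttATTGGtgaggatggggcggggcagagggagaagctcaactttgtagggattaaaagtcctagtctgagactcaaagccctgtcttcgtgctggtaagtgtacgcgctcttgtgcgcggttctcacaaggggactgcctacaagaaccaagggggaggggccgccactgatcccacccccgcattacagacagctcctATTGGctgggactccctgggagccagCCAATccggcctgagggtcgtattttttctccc
Cox6b1: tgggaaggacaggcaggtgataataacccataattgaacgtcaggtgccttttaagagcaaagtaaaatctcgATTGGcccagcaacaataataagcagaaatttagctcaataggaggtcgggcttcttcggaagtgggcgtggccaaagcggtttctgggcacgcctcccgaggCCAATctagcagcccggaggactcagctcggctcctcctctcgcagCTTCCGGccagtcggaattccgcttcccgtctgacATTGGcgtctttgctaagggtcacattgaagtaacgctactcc
Cox7a1: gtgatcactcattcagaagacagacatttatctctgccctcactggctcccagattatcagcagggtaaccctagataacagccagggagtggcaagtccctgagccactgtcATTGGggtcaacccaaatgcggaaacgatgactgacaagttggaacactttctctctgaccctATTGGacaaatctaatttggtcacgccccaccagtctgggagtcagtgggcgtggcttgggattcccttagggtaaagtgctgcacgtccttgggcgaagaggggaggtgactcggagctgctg
Of the motifs searched, the windows of *Cox6b2* and *Cox7a1* held the CCAAT box only, and that of *Cox6b1* also the ETS motif. Windows were found for 66 of the 80 genes, 71 in all, and searched on both strands. GCATGCGC, the NRF1 motif, was in 12.7% of them, against 2.71% of all 32851 windows, and CCGGAAG in 23.9%, against 8.86%. AAGATGGCG, the YY1 motif, was in 8.45%, against 1.40%, and TCAAGGTCA, the ERR motif, in 2.82%, against 0.423%. CCAAT was in 40.8%, against 37.4%, and the p53 decamer, searched by its consensus, in 5.63%, against 8.36%, with none in these 3 windows. These are counts of letters and not of bound sites.

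Complex V is the ATP synthase. *Atp5a1*, the alpha subunit of its catalytic head, was 13.62 and 13.50 in Tumor IR and 13.17 and 13.01 in Tumor no IR cells, against 12.94 and 12.72 in LN IR and 13.23 and 12.90 in LN no IR cells. The Tumor IR arrays were above all others, and *Atp5a1* was 1.66-fold higher than in LN IR cells (log2 fold change 0.73, 95% CI 0.32 to 1.14, limma adjusted p = 0.0489). By size it was the 1228th of the 1534 rises among all genes. This call belongs to 1 of 3 probe sets of the gene. The others gave -0.04 and -0.01 (adjusted p = 0.909 and 0.984), and the mean of the 3 gave 0.23, which did not pass. Without LN IR replicate 2 the call was also lost. *Atp5b*, the beta subunit of the same head, was 0.12 higher in Tumor IR than in LN IR cells (95% CI -0.35 to 0.58).

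The 3 genes for the identical c subunit of the rotor differed in their values. *Atp5g1* was 9.35 and 9.24 in Tumor IR and 9.59 and 9.81 in Tumor no IR cells, against 9.89 and 9.33 in LN IR and 9.98 and 10.42 in LN no IR cells. In both tissues its IR arrays were lower, by -0.40 in tumor and -0.59 in LN, and neither passed (adjusted p = 0.437 and 0.320). The LN value was -0.31 without LN IR replicate 2. *Atp5g2* and *Atp5g3* differed by -0.11 and -0.03 in tumor and by 0.09 and -0.28 in LN. *Atp5k*, a subunit of the membrane part, was 10.35 and 10.30 in Tumor IR cells, against 10.86 and 10.92 in Tumor no IR cells, and this gap of -0.57 also missed the threshold (adjusted p = 0.305).

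Genes that build, feed or control the complexes were counted in the same way. Each list count stands against the share of all genes called. In Tumor no IR over LN no IR cells 6.06% of all genes rose and 2.26% fell. In Tumor IR over LN IR cells 8.43% rose and 4.5% fell. With IR the shares were 0.984% and 0.511% in LN, and 0.0934% and 0.0055% in tumor. Of 44 assembly factors 2 rose and 1 fell in Tumor IR over LN IR cells, and 1 rose and 1 fell with IR in LN. *Sdhaf1*, which helps insert the iron-sulfur clusters of complex II, was 10.15 and 10.26 in Tumor IR and 9.83 and 9.79 in Tumor no IR cells, against 11.14 and 11.22 in LN IR and 10.17 and 10.28 in LN no IR cells. It rose by 0.96 with IR in LN (limma adjusted p = 0.0409) and was lower in Tumor IR than in LN IR cells (log2 fold change -0.98, adjusted p = 0.00805), comparisons that share the LN IR arrays. *Ndufaf4*, an assembly factor of complex I, fell by 1.15 with IR in LN (adjusted p = 0.0809), and *Ttc19*, needed for complex III, was 1.03 higher in Tumor IR than in LN IR cells (adjusted p = 0.0784). Without LN IR replicate 2 *Sdhaf1* kept both calls (adjusted p = 0.0612 and 0.0196), while *Ndufaf4* and *Ttc19* lost theirs (adjusted p = 0.140 and 0.195).

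Of 20 regulators of mitochondrial biogenesis 0 rose and 1 fell in Tumor no IR over LN no IR cells. In Tumor IR over LN IR cells 1 rose and 2 fell. With IR 0 rose and 2 fell in LN, and 0 rose and 1 fell in tumor. *Pprc1*, a coactivator of the PGC-1 family, passed with IR in both tissues. It was 7.23 and 7.21 in Tumor IR cells, against 8.45 and 8.61 in Tumor no IR cells, and 7.76 and 7.48 in LN IR cells, against 8.95 and 8.98 in LN no IR cells. The groups did not overlap in either tissue, and *Pprc1* fell by 1.31 with IR in tumor (adjusted p = 0.0861) and by 1.35 with IR in LN (adjusted p = 0.0196). *Ppargc1b* had the largest called fall of the list in Tumor IR over LN IR cells (-0.68, limma adjusted p = 0.0837). The fold change was -0.64 without LN IR replicate 2, and the call was lost. *Tfam*, which packages and transcribes mitochondrial DNA, was lower in tumor both without IR (-0.73, adjusted p = 0.0345) and with IR (-0.49, adjusted p = 0.0920). *Gabpa*, which binds the ETS motif above, fell by 0.90 with IR in LN (adjusted p = 0.0542) and was 0.61 higher in Tumor IR than in LN IR cells (adjusted p = 0.0435). Without LN IR replicate 2 *Pprc1* in LN and both *Gabpa* calls held (adjusted p = 0.0268, 0.0777 and 0.0929), and the *Tfam* call with IR did not (adjusted p = 0.185).

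The list of 20 citric acid cycle genes includes *Idh1*, the cytosolic and not the mitochondrial isocitrate dehydrogenase. It was higher in tumor without IR (2.25, limma adjusted p = 0.0177) and with IR (2.43, adjusted p = 0.0126). Macrophage markers were higher in the same comparisons, and their part in the *Idh1* values was not tested. *Dld*, a subunit shared by the 2-oxoacid dehydrogenases, was 0.71 higher in Tumor IR than in LN IR cells (adjusted p = 0.0937), and the list held no other call. Of 22 carriers and cytochrome c genes 1 was called, *Hccs*, which attaches heme to cytochrome c (Tumor IR over LN IR 0.72, adjusted p = 0.0336). Of 24 import genes *Timm8a1* and *Timm10*, chaperones of the space between the membranes, fell with IR in LN by 1.36 and 1.10 (adjusted p = 0.0267 and 0.0876), and *Hspe1*, the small partner of the matrix chaperonin, was lower in Tumor no IR than in LN no IR cells (-0.60, adjusted p = 0.0866). *Idh1*, *Hccs* and *Timm8a1* kept these calls without LN IR replicate 2 (adjusted p = 0.0249, 0.0759 and 0.0314), while *Dld* and *Timm10* lost theirs (adjusted p = 0.211 and 0.142). Of 76 mitochondrial ribosomal protein genes 0 were called in any of the 4 comparisons. Their arrays were apart downward for 51 genes in Tumor no IR over LN no IR cells (67.1%, median -0.24), for 20 in Tumor IR over LN IR cells (26.3%, median -0.11), for 41 with IR in LN (53.9%, median -0.30) and for 47 with IR in tumor (61.8%, median -0.21). Among the 9835 brighter genes 31.7%, 22.4%, 28% and 41.9% were apart downward. Without LN IR replicate 2 the median with IR in LN was -0.12 and that of Tumor IR over LN IR was -0.31. *Cox4i1*, the common form of a complex IV subunit outside the symbol rule, reached at most 12.10 on the Tumor IR arrays, against 12.63 and 12.47 on the LN IR arrays (log2 fold change -0.50, adjusted p = 0.0935). *Cox4i2*, the other form, was 0.27 higher in Tumor IR than in LN IR cells and did not pass (limma adjusted p = 0.352).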

How the data were processed

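CD8+ T cells of 4 groups with 2 arrays each were profiled on Affymetrix mouse genome arrays, whose probe sets are groups of short oligonucleotides. The deposited values are log2 values that the authors made by robust multi-array average (RMA), and the sources used here do not give its version. The series holds 2 independent experiments, and the labels do not tie replicate numbers to them. Genes were named from the platform annotation. All 35877 annotated probe sets of 45101 were fitted with limma 3.58.1 in R 4.3.3 by least squares over the 4 groups, with Benjamini-Hochberg adjustment over them and an adjusted p threshold of 0.1 at any fold. The study used a robust fit, 2-fold and a second test (SAM), the last not run here. The fit was tested on simulated data. Each gene was read by its brightest probe set. The text names, by rule, members called at 2-fold, the called member with the largest rise and fall per complex, set core subunits and tissue isoforms, and the called gene with the largest rise and fall of each list. *Ndufb4*, *Ndufb10*, *Uqcr11*, *Atp5k*, *Cox7c*, *Dld*, *Timm10*, *Kmt5c* and the genes listed by an unadjusted p or by arrays apart were chosen after their values were seen. Members and lists were chosen with earlier results of these data known, and the CCAAT and p53 searches, the brighter-gene shares and the complex IV mean without *Cox6b2* were added after seeing the data. Alternatives were the robust fit, array weights, mean-variance trend, replicate block, cyclic loess, T cell scaling, a filter on dim probe sets, other probe set rules, stricter thresholds, only the arrays compared and each array left out. The number of arrays limits the precision. Flow cytometry was not analysed here.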

Additional observations from a re-analysis of the deposited data

How the results depend on the processing

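Counts of subunit genes called moved with the fit. For Tumor no IR over LN no IR, 1 gene became 0 at an adjusted p under 0.05, with a 2-fold limit, with a mean-variance trend, with the replicate block and without the dimmer probe sets, 2 with array weights, cyclic loess or the mean of a gene's probe sets, and 4 with the robust fit. For Tumor IR over LN IR, 3 became 1 with a 2-fold limit, array weights or only the arrays compared, 5 with cyclic loess or the most variable probe set, and 15 with the robust fit. For LN IR over LN no IR, 1 became 0 with only the arrays compared and 3 with the robust fit. For Tumor IR over Tumor no IR, 0 became 14 with array weights, 11 with only the arrays compared, 11 with the robust fit and 1 with T cell scaling. Leaving out each array in turn gave 0 to 2, 1 to 15 and 1 to 22 genes in the first 3 comparisons, 0 in the tumor comparison and 0 to 5 for the difference of the IR effects; 15, 22 and 5 came without LN IR replicate 1, when 28.9%, 26.1% and 6% of all genes were called. The cause of these shifts was not tested.

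With T cell scaling the median log2 fold change was 0.13 for Tumor no IR over LN no IR, 0.26 for LN IR over LN no IR and 0.255 for Tumor IR over Tumor no IR, and cyclic loess gave -0.028 in LN. Leaving out each array, it ran from -0.12 to 0.00 for Tumor no IR over LN no IR, from -0.13 to 0.15 for Tumor IR over LN IR, from -0.34 to -0.026 for LN IR over LN no IR and from -0.048 to 0.24 for the difference of the IR effects. Same-numbered arrays correlated in their deviations at 0.40 within tumor and 0.38 within LN, but from -0.14 to 0.06 across tissues. The labels do not tie the numbers to experiments, so no pairing was assumed. The replicate block, a term common to both tissues, left 0, 3, 1, 0 and 0 calls. A pairing within each tissue was not fitted, so these calls do not settle whether it would change the IR comparisons. *Cox7b2*, under the lower quartile of every array, is limited by its dim probe set.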
